A study of Mus musculus with 39 samples.

Results

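The genes described here are those by which the liver makes and releases glucose, feeds it into glycolysis and answers insulin. The list named 9 mouse genes, Pck1, G6pc, Pklr, Irs1, Irs2, Insr, Slc2a2, Foxo1 and Ppargc1a, and a gene was taken when the RefSeq accession printed for an array probe belonged to it. Of the 9, 7 had such a probe, among 17016 genes with a RefSeq probe in all. Slc2a2 and Foxo1 had 2 probes each, and Pck1 and Irs2 matched none and were not analysed here. The accessions were NM_008061 for G6pc, NM_013631 for Pklr, NM_010570 for Irs1, NM_010568 for Insr, NM_031197 for Slc2a2, NM_019739 for Foxo1 and NM_008904 for Ppargc1a.

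In the fasting liver, gluconeogenesis builds glucose from lactate, amino acids and glycerol. The phosphatase encoded by G6pc frees it and the transporter GLUT2, encoded by Slc2a2, carries it across the hepatocyte membrane. Insulin, acting through its receptor (Insr) and the adaptors Irs1 and Irs2, restrains this output by moving the transcription factor FOXO1 out of the nucleus. Glucagon and glucocorticoids favour it, in part through the coactivator encoded by Ppargc1a. Liver pyruvate kinase, encoded by Pklr, runs the final step of glycolysis and is induced by feeding.

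Liver RNA came from 39 male C57BL/6J mice, singly housed. AggE mice spent 6 hrs a day for 5 or 10 days in a cage within the home cage of a trained SJL aggressor, with limited physical contact, and Ctrl mice followed the same schedule with no aggressor. Both kinds of mice went without food during the sessions, and all met the aggressor cue in a partition test shortly before collection. Ctrl and AggE mice of 1 time therefore shared the fasting and the cue. The last session lay 24 hrs, 1.5 wks or 4 wks back, with free feeding since, so recent fasting and age differed between the times. Livers were taken at 24 hrs post-5-day stressor (4 Ctrl, 5 AggE), 24 hrs post-10-day stressor (4 Ctrl, 5 AggE), 1.5 wks post-5-day stressor (4 Ctrl, 5 AggE) and 4 wks post-10-day stressor (6 Ctrl, 6 AggE). All 5 AggE samples of the 1.5 wk group, and 1 of its Ctrl samples, carry a 10 in their titles as the 10-day samples do, while their descriptions give the 5-day regimen, which was followed. Each liver was 1 mouse on 1 array, with its RNA in Cy-5 beside a pooled mouse reference RNA in Cy-3. Every level below is therefore a log2 ratio of liver to reference after normalization, and a difference of 1 is a 2-fold difference.

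The arrays differed in brightness. The share of RefSeq probes that the scanner software called well above background in Cy-5 ran from 20.0% to 79.7%, with group medians between 29.2% (Ctrl, 1.5 wks) and 64.0% (AggE, 4 wks). At both 24 hr points no slide held both Ctrl and AggE arrays, so slide and group cannot be told apart there. Slide 7 held both groups at 1.5 wks and slide 9 at 4 wks, each with 3 Ctrl arrays and 1 AggE array. Albumin and the other 4 hepatocyte markers with a probe (Ttr, Apoa1, Apob and Ass1) were well above background on all 39 arrays, while of 8 pancreas markers Ctrb1 was so on 34 arrays and the other 7 on between 1 and 10.

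Among the members, G6pc, Ppargc1a and both Slc2a2 probes were well above background in Cy-5 on all 39 arrays. Of the Foxo1 probes, the brighter was so on 39 and the second on 37. Pklr passed on 35, Irs1 on 20 and Insr on 10. Irs1 passed on 0 of 9 arrays at 24 hrs post-5-day stressor and Insr on 0 of 18 at both 24 hr points, so no fold is given for them there. The reference RNA held little of some of these transcripts. In Cy-3 the brighter Slc2a2 probe was well above background on 0 of 39 arrays, Pklr on 13 and the second Slc2a2 probe on 14, against 38 for G6pc and Ppargc1a and 39 for Foxo1. A ratio over a reference near background depends on how the background is treated, and this applies to Slc2a2, Pklr and Insr (15 of 39 arrays in Cy-3) below.

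**Figure D1:**
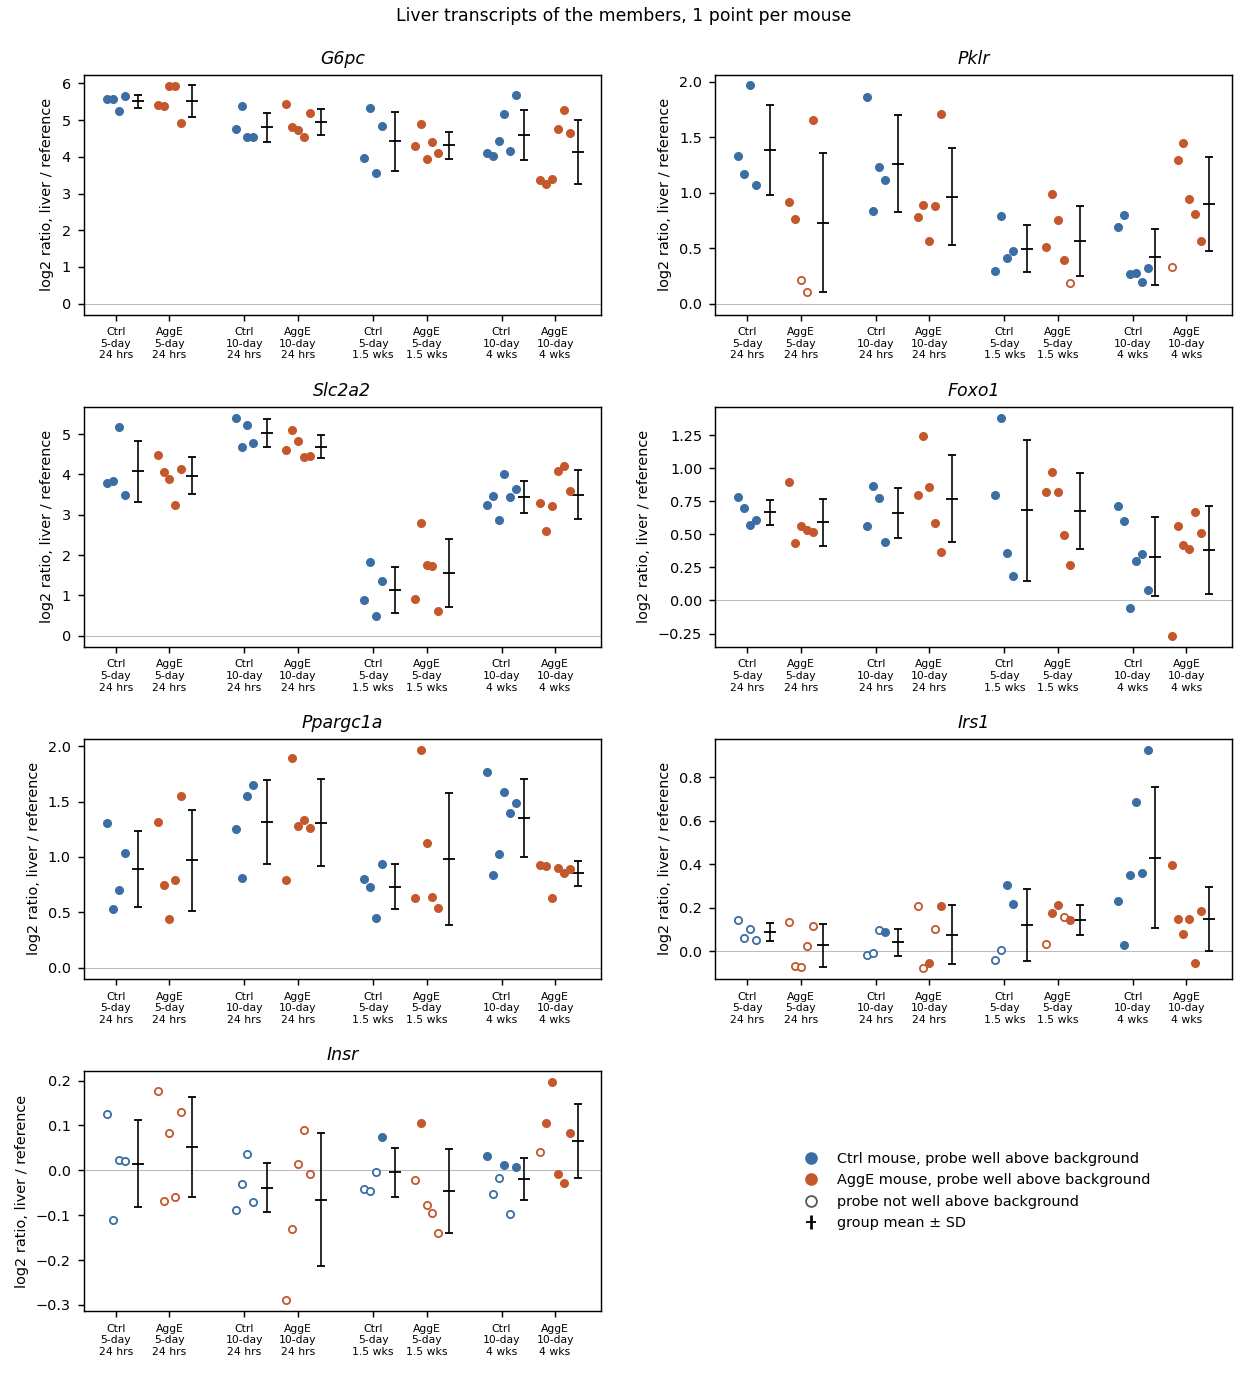
Log2 ratio of liver to reference RNA (y axis) of the 7 members in the 8 groups (x axis), 1 point per mouse, with the group mean and SD in black; filled points are well above background in Cy-5 and open points are not. Ctrl and AggE ranges overlap for each member at each time, and Slc2a2 lies lowest in both groups at 1.5 wks.

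Aggressor exposure was compared with its control at each time, which asks whether transcripts of glucose handling differed with the stressor. None of the 7 members passed an adjusted p of 0.05 in limma's moderated test at any of the 4 times. At 24 hrs post-5-day stressor 0 of 7 passed, against 3.1% of all 17016 genes. The same count was 0 of 7 at 24 hrs post-10-day stressor (0.094% of all genes), 0 of 7 at 1.5 wks (0% of all genes) and 0 of 7 at 4 wks (4.18% of all genes). The study counted genes that differed at least 2-fold with a p up to 0.05, read here as unadjusted. With the processing used here no member met these limits, against 0.3%, 0.182%, 0.0411% and 0.3% of all genes in the same order. The study reported many more genes under its limits at each time, so these shares do not stand for its yield. Why the counts differ was not tested.

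Without adjustment, at a p up to 0.05, 1 of 7 members passed at 24 hrs post-5-day stressor (16.8% of all genes), and it was Pklr, with the lower level in AggE livers. None did so at 24 hrs post-10-day stressor (2.87%) or at 1.5 wks (2.49%). At 4 wks 3 of 7 did (22.8%), with Pklr higher and Irs1 and Ppargc1a lower in AggE livers. In none of the 4 comparisons did the Ctrl and AggE ranges of a member's brighter probe lie apart. Among all 17016 genes they did so for 1260, 317, 137 and 301 in the same order.

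**Figure D2:**
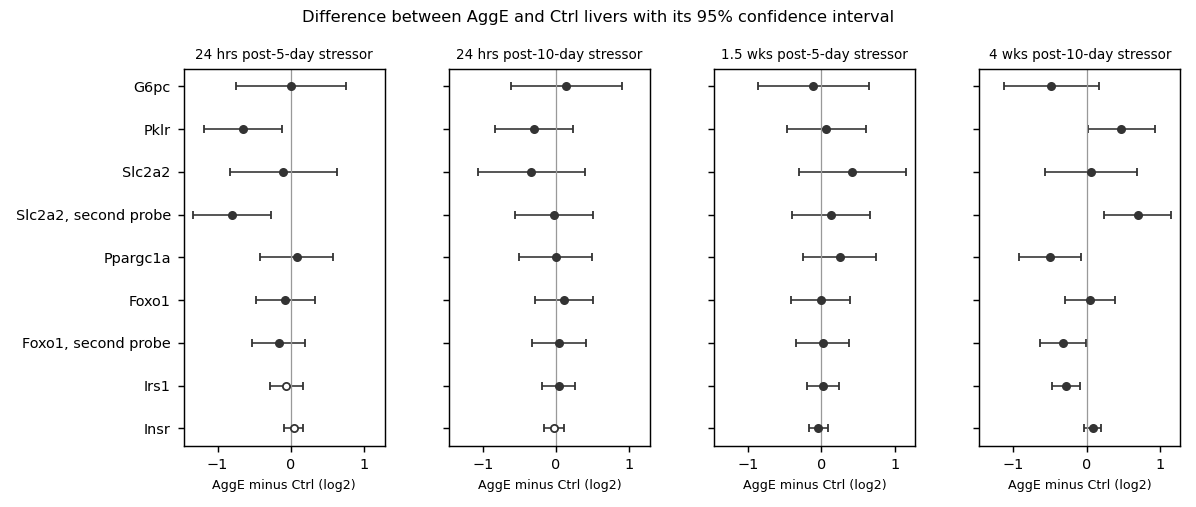
AggE minus Ctrl on the log2 scale (x axis) with its 95% confidence interval for the 9 member probes (y axis) at the 4 times; open points are probes well above background on no array of either group. Intervals that leave out 0 are those of Pklr and the second Slc2a2 probe at 24 hrs post-5-day stressor, and of Pklr, the second Slc2a2 probe, Ppargc1a, the second Foxo1 probe and Irs1 at 4 wks, none with an adjusted p of 0.05 or less.

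The release of glucose was represented by G6pc, whose product removes the phosphate from glucose 6-phosphate. At 24 hrs post-5-day stressor its log2 ratio was 5.57, 5.57, 5.26 and 5.66 in the Ctrl livers and 5.42, 5.39, 5.92, 5.94 and 4.91 in the AggE livers. The Ctrl livers lay inside the range of the AggE livers, which held both the highest and the lowest value. The difference was 0.00 (SE 0.37, limma adjusted p = 0.999), with a 95% confidence interval from -0.75 to 0.76.

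At 24 hrs post-10-day stressor G6pc was 4.75, 5.38, 4.54 and 4.54 in Ctrl livers and 5.43, 4.82, 4.72, 4.55 and 5.19 in AggE livers, overlapping over nearly the whole range. At 1.5 wks it was 3.97, 5.32, 3.57 and 4.84 in Ctrl and 4.28, 4.89, 3.93, 4.39 and 4.09 in AggE livers, with the Ctrl livers at both ends. The differences were 0.14 and -0.11, both with an SE of 0.37. At 4 wks the lowest, median and highest G6pc values were 4.03, 4.30 and 5.68 in Ctrl livers and 3.27, 4.02 and 5.27 in AggE livers. The AggE livers included values below every Ctrl liver, but the groups overlapped and the difference of -0.48 did not pass (SE 0.32, limma adjusted p = 0.419). On slide 9 the 1 AggE liver had 3.38 and the 3 Ctrl livers 4.16 to 5.68, and with slide as a fixed block the difference was -1.22 (limma adjusted p = 0.216). At 4 wks that fit rests directly on the 1 AggE liver of slide 9, and otherwise on slides that link the groups through the 1.5 wk livers. Over the alternatives run the G6pc difference at 4 wks ran from -1.22 to 0.24, so its sign was not stable.

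Slc2a2 encodes the low-affinity glucose transporter of hepatocytes, and its 2 probes gave different pictures. By the brighter probe, Ctrl livers at 24 hrs post-5-day stressor had 3.79, 3.83, 5.17 and 3.50 and AggE livers 4.49, 4.06, 3.89, 3.25 and 4.14, which overlapped (difference -0.11, SE 0.36, limma adjusted p = 0.939). By the second probe, the same Ctrl livers had 2.86, 2.28, 2.53 and 1.73 and the AggE livers 1.87, 1.81, 1.15, 0.62 and 2.27. There the 2 lowest values were AggE livers, and the difference was -0.81 (SE 0.26, unadjusted p = 0.0041, limma adjusted p = 0.0818), with an interval from -1.34 to -0.27.

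At 24 hrs post-10-day stressor the brighter Slc2a2 probe read 5.41, 4.69, 5.22 and 4.78 in Ctrl and 4.62, 5.10, 4.83, 4.42 and 4.46 in AggE livers. The second read 2.43, 1.68, 2.36 and 1.41 in Ctrl and 1.50, 1.90, 2.01, 1.65 and 2.67 in AggE livers. The groups overlapped on both probes, with differences of -0.34 (SE 0.36) and -0.03 (SE 0.26).

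The ratios of the Slc2a2 probes parted again at 4 wks. The brighter probe had a lowest, median and highest value of 2.86, 3.45 and 4.02 in Ctrl livers and 2.60, 3.44 and 4.22 in AggE livers. The second had 0.58, 0.85 and 1.26 in Ctrl livers and 1.39, 1.56 and 1.84 in AggE livers. By the brighter probe the groups lay over each other (difference 0.06, SE 0.31, limma adjusted p = 0.944). The Cy-5 part of these ratios ran from 8.88 to 9.87 in Ctrl and from 9.51 to 10.88 in AggE livers, over a Cy-3 signal not well above background. Over the alternatives run, the second probe among them, the Slc2a2 difference ran from -0.78 to 0.97. By the second probe, all 6 AggE livers lay above all 6 Ctrl livers, and the difference of 0.70 (SE 0.23, interval 0.24 to 1.16) still did not pass after adjustment (limma adjusted p = 0.0716). Ranges lay apart for 301 of all 17016 genes at 4 wks. On slide 9 the second probe read 1.39 in the AggE liver and 0.71 to 0.89 in the 3 Ctrl livers. Across the 39 arrays the probes correlated with r = 0.717, and with r = 0.557 after removal of group means, on shared arrays and a shared normalization. Which transcripts each probe detects was not analysed here.

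The last step of glycolysis was represented by Pklr, which in liver makes the pyruvate kinase that insulin and carbohydrate feeding induce. In the 24 hr livers of the 5-day regimen its log2 ratio was 1.33, 1.17, 1.97 and 1.07 in Ctrl and 0.92, 0.76, 0.21, 0.10 and 1.66 in AggE livers. Of the AggE livers, 4 lay below every Ctrl liver and 1 among them, and 2 of the low ones were not well above background. The AggE mean was 1.57-fold below the Ctrl mean (log2 difference -0.65, SE 0.26, interval -1.19 to -0.12), with an unadjusted p of 0.0179 and a limma adjusted p of 0.173. The AggE liver with 1.66 was also the only one of its group on slide 6, the others being on slide 5. Without it the difference was -0.88 and passed (limma adjusted p = 0.0455). Over 16 other alternatives the difference ran from -2.59 to -0.47, and it passed in 5. The share of all probes well above background was lower in this AggE group, with a median of 30.2% against 39.0% in Ctrl, and its part in the Pklr values was not tested.

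The 10-day regimen gave Pklr values of 1.87, 0.84, 1.23 and 1.12 in Ctrl and 0.79, 0.89, 0.57, 0.88 and 1.71 in AggE livers at 24 hrs. Of the 5 AggE livers 2 lay below every Ctrl liver, and the difference was -0.30 (SE 0.26, interval -0.83 to 0.24). At 1.5 wks it read 0.30, 0.79, 0.41 and 0.48 in Ctrl and 0.51, 0.99, 0.75, 0.39 and 0.18 in AggE livers, which overlapped (difference 0.07, SE 0.26).

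At 4 wks the sign was the other way. Pklr had a lowest, median and highest value of 0.19, 0.30 and 0.80 in Ctrl livers and 0.34, 0.88 and 1.45 in AggE livers. The groups overlapped, the AggE mean was 1.39-fold above (log2 difference 0.47, SE 0.23, interval 0.02 to 0.93), and the limma adjusted p was 0.227. On slide 9 the AggE liver had 0.34 against 0.19 to 0.32 in the Ctrl livers, and with slide as a fixed block the difference was -0.13. The AggE minus Ctrl difference of Pklr at 24 hrs less that at 4 wks of the 10-day regimen was -0.77 (SE 0.35, unadjusted p = 0.0328), which did not pass over all genes (limma adjusted p = 0.534).

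Insulin reception was represented by Insr and Irs1. The Insr probe was dim: its log2 ratio stayed between -0.29 and 0.20 on all 39 arrays, and its level could not be resolved at 24 hrs. At 4 wks it was well above background on 3 of 6 Ctrl and 5 of 6 AggE arrays, and the difference was 0.08 (SE 0.056, limma adjusted p = 0.410).

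Irs1, the adaptor that recruits phosphatidylinositol 3-kinase to the activated receptor, was well above background in all 12 livers only at 4 wks. Its lowest, median and highest values were 0.03, 0.35 and 0.93 in Ctrl livers and -0.05, 0.15 and 0.40 in AggE livers. The 2 highest Ctrl livers, 0.69 and 0.93, lay above every AggE liver, but the lower Ctrl livers overlapped the AggE group. The AggE mean was 1.21-fold below the Ctrl mean (log2 difference -0.28, SE 0.095, interval -0.47 to -0.09, unadjusted p = 0.0058, limma adjusted p = 0.0862). The 3 highest Ctrl livers were all on slide 9, where the 1 AggE liver had 0.40 against 0.36 to 0.93. With slide as a fixed block the difference was -0.19 (limma adjusted p = 0.505). Leaving out 1 array moved it either way. It was -0.36 without Ctrl replicate 2 (limma adjusted p = 0.0138) and -0.33 without AggE replicate 1 (limma adjusted p = 0.0294), which passed, and -0.18 without Ctrl replicate 6 (limma adjusted p = 0.218). At 1.5 wks Irs1 was well above background on 2 of 4 Ctrl and 3 of 5 AggE arrays, with a difference of 0.02 (SE 0.11).

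The transcriptional arm was represented by Foxo1 and Ppargc1a. Foxo1, which drives gluconeogenic genes when insulin is low, read 0.78, 0.70, 0.57 and 0.61 in Ctrl and 0.90, 0.43, 0.56, 0.53 and 0.52 in AggE livers at 24 hrs post-5-day stressor by its brighter probe. After 10 days it read 0.57, 0.86, 0.77 and 0.44 in Ctrl and 0.80, 1.24, 0.86, 0.58 and 0.36 in AggE livers. The groups overlapped at both points, with differences of -0.08 (SE 0.20) and 0.11 (SE 0.20).

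At 1.5 wks Foxo1 was 0.80, 1.38, 0.36 and 0.19 in Ctrl and 0.82, 0.97, 0.82, 0.49 and 0.27 in AggE livers, with the Ctrl livers spread the wider. At 4 wks the lowest, median and highest were -0.06, 0.33 and 0.72 in Ctrl and -0.27, 0.46 and 0.67 in AggE livers. The differences were -0.01 (SE 0.20) and 0.05 (SE 0.17). The second Foxo1 probe differed by -0.32 at 4 wks (SE 0.15, unadjusted p = 0.0434, limma adjusted p = 0.227), from means of 0.76 in Ctrl and 0.44 in AggE livers. The Foxo1 probes correlated with r = 0.274 over the 39 arrays and r = 0.535 after removal of group means.

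Ppargc1a encodes PGC-1α, a coactivator of gluconeogenic and mitochondrial genes. At 24 hrs post-5-day stressor it read 1.31, 0.53, 0.70 and 1.03 in Ctrl and 1.32, 0.75, 0.44, 0.80 and 1.55 in AggE livers. The 24 hr livers of the 10-day regimen read 1.25, 0.81, 1.55 and 1.65 in Ctrl and 0.80, 1.89, 1.28, 1.33 and 1.26 in AggE livers. The AggE livers held both extremes at each point, and the differences were 0.08 and -0.00 (SE 0.24 each).

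The largest fitted difference of Ppargc1a was at 4 wks, where its lowest, median and highest values were 0.84, 1.44 and 1.77 in Ctrl livers and 0.63, 0.90 and 0.92 in AggE livers. The AggE livers were packed within a narrow range, and 1 of the 6 Ctrl livers fell inside it. The AggE mean was 1.41-fold below (log2 difference -0.50, SE 0.21, interval -0.92 to -0.07, unadjusted p = 0.0239, limma adjusted p = 0.171). On slide 9 the AggE liver had 0.92 and the 3 Ctrl livers 1.40 to 1.59, and with slide as a fixed block the difference was -0.77 (limma adjusted p = 0.184). Over the alternatives run the difference ran from -0.93 to -0.34, and it passed without normalization between arrays. At 1.5 wks the values were 0.80, 0.73, 0.45 and 0.93 in Ctrl and 0.63, 1.97, 1.12, 0.64 and 0.54 in AggE livers. The AggE liver with 1.97 was on the brightest array of its group (57.6% of probes well above background), and the difference was 0.25 (SE 0.24).

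Whether the AggE effect itself differed between regimens or times was tested directly. For the 5-day against the 10-day regimen at 24 hrs, 0 of 7 members passed (0.0353% of all genes). For 24 hrs against 1.5 wks, 0 of 7 passed (0.094%), and for 24 hrs against 4 wks, 0 of 7 passed (0.0764%). For the times, each value is the AggE minus Ctrl difference at 24 hrs less that at the later time. At 4 wks Irs1 came nearest beside Pklr, with 0.32 (SE 0.15, unadjusted p = 0.0371, limma adjusted p = 0.540). The second Slc2a2 probe gave -0.94 for 24 hrs less 1.5 wks (SE 0.37, unadjusted p = 0.0159, limma adjusted p = 0.524). The intervals of these differences were wide, from -1.21 to 0.93 for G6pc between the regimens, for example.

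Levels of several members differed between the times. These contrasts between separate groups of mice were chosen after the data were seen, and the times also differ in slides, scan days and brightness. Mouse age and the time since food was last withheld differ between them as well. At 1.5 wks against 24 hrs of the 5-day regimen, 2 of 7 members passed in Ctrl livers (13.8% of all genes) and 2 of 7 in AggE livers (23.7%), each with lower levels later. At 4 wks against 24 hrs of the 10-day regimen, 3 of 7 passed in Ctrl livers (10.3%) and 1 of 7 in AggE livers (14.5%). With slide as a random block, at an estimated correlation of 0.320 within a slide, 1 of 7 passed in each exposure at 1.5 wks and 0 of 7 in each at 4 wks. Slc2a2 was lower later in each of the 4 contrasts and passed in each without that block, and with it at 1.5 wks alone.

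By its brighter probe, Slc2a2 was 0.89, 1.82, 0.50 and 1.36 in Ctrl livers at 1.5 wks and 0.92, 2.78, 1.76, 1.72 and 0.62 in AggE livers. The AggE livers held the highest value and the ranges overlapped, with an AggE minus Ctrl difference of 0.42 (SE 0.36, interval -0.31 to 1.15). By the second probe these livers had 0.76, 1.06, 0.37 and 0.99 in Ctrl and 0.74, 1.45, 0.80, 1.07 and 0.59 in AggE, a difference of 0.13 (SE 0.26). By the brighter probe every 1.5 wk liver lay below every 24 hr liver of the same exposure, where the lowest values were 3.50 in Ctrl and 3.25 in AggE. Slc2a2 fell by 2.93 on the log2 scale in Ctrl livers (SE 0.38, 7.62-fold, limma adjusted p = 2.48e-06). In AggE livers the change was -2.40 (SE 0.34, 5.29-fold lower, limma adjusted p = 6.53e-06). The Cy-3 signal in these ratios was not well above background on any array. From Cy-5 alone, quantile-normalized without Cy-3, the differences were smaller, -1.21 in Ctrl and -1.18 in AggE livers. The Cy-5 part of the normalized ratios ran from 9.44 to 10.50 at 24 hrs and from 6.77 to 7.96 at 1.5 wks in Ctrl livers. In AggE livers it ran from 9.39 to 10.48 and from 6.97 to 8.88. In these bulk livers fewer hepatocytes and less transcript per hepatocyte cannot be told apart.

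In the 10-day regimen Slc2a2 was lower at 4 wks than at 24 hrs, by 1.58 in Ctrl (SE 0.34, 2.99-fold, limma adjusted p = 0.0032) and 1.18 in AggE livers (SE 0.32, 2.27-fold, limma adjusted p = 0.0140). Neither passed with slide as a random block (-1.56 in Ctrl, limma adjusted p = 0.300, and -1.31 in AggE, limma adjusted p = 0.176). Under 15 alternatives the AggE call was lost in 9, with differences down to -0.29 (from processed signals, limma adjusted p = 0.801). Among the alternatives, Aquantile changes mean intensities alone, so it repeats the ratios of no normalization between arrays. The Ctrl call was lost in 4, among them no normalization between arrays (-1.10, limma adjusted p = 0.281). In both, the highest 4 wk liver lay below the lowest 24 hr liver. The second probe was lower by 1.55 at 1.5 wks in Ctrl livers (limma adjusted p = 0.000164) and by 1.10 at 4 wks in Ctrl livers (limma adjusted p = 0.0048). In AggE livers its differences of -0.61 and -0.38 did not pass (limma adjusted p = 0.0739 and 0.316).

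Array brightness also differed between the times. In the 5-day regimen the median share of probes well above background was 39.0% at 24 hrs and 29.2% at 1.5 wks in Ctrl arrays, and 30.2% and 29.3% in AggE arrays. In the 10-day regimen the medians were 48.5% and 49.6% in Ctrl and AggE arrays at 24 hrs, and 62.0% and 64.0% at 4 wks. Of the 9 arrays at 1.5 wks, 7 had between 20.0% and 31.95%, and Ctrl replicate 4 and AggE replicate 2, scanned on the later day, had 50.6% and 57.6%. The former had a Slc2a2 value of 1.36, and the latter had 2.78, the highest of the 9. The reference signal of the brighter probe, above local background, had a median of 15.5 intensity units at 24 hrs and 2.25 at 1.5 wks in Ctrl, and of 39 and 23 in AggE, and it was called well above background in none of them. With slide as a random block the Slc2a2 differences at 1.5 wks were -2.65 in Ctrl (limma adjusted p = 0.00802) and -2.45 in AggE livers (limma adjusted p = 0.000145). With scan day as a block they were -3.16 and -2.59, and on the arrays of the first scan day -3.00 and -2.71. The part of brightness was not tested.

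Some slides held livers of 2 times. On slide 6, 1 AggE liver at 24 hrs had 4.14 for Slc2a2 and 3 AggE livers at 1.5 wks had 0.92 to 1.76. On slide 8, 1 Ctrl liver at 1.5 wks had 1.36 and 3 Ctrl livers at 4 wks of the 10-day regimen had 2.86 to 3.47, and on slide 11 the AggE liver at 1.5 wks had 2.78 and that at 4 wks 3.59. The 1.5 wk livers were the lower on each of these slides, each with a single liver at one or both of the times. By the second probe slide 8 gave 0.99 against 0.58 to 1.26, which overlapped. Without normalization between arrays the AggE difference at 1.5 wks was -1.60 and did not pass (limma adjusted p = 0.176), and from the log ratios of the series table it was -0.62 (limma adjusted p = 0.525). The cause was not tested.

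**Figure D3:**
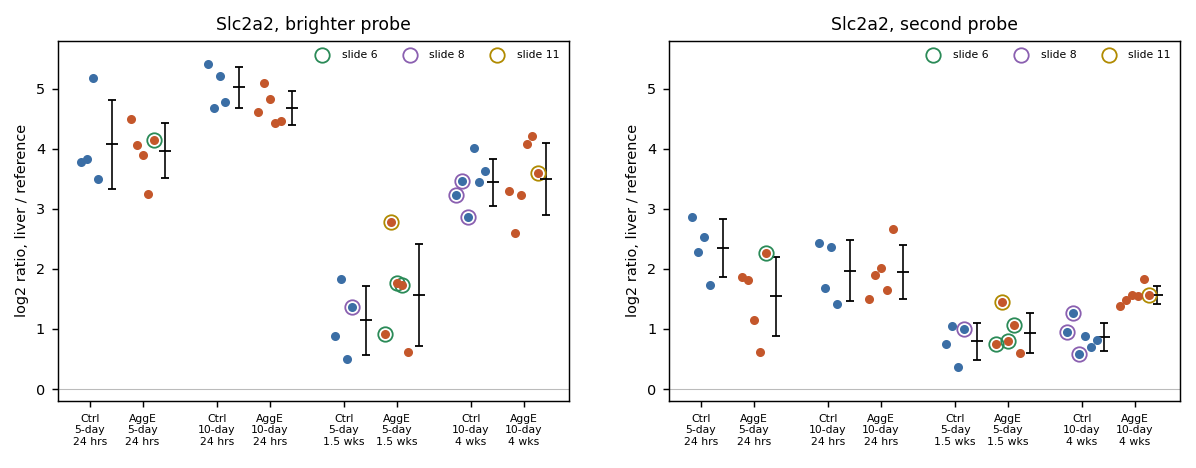
Log2 ratio of liver to reference RNA (y axis) for the brighter (left) and second (right) Slc2a2 probe in the 8 groups (x axis), 1 point per mouse, Ctrl blue and AggE orange, with the group mean and SD in black; rings mark the arrays of slides 6 (green), 8 (purple) and 11 (gold), which held 2 times. On the left the 1.5 wk livers of slide 6 lie at 0.92 to 1.76, under its 24 hr liver at 4.14; on the right slide 8 shows no such gap.

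Other members also passed with time. Pklr was lower in Ctrl livers at 1.5 wks than at 24 hrs by 0.89 (SE 0.28, limma adjusted p = 0.0301) and at 4 wks by 0.84 (SE 0.25, limma adjusted p = 0.0312), without overlap in either. Neither passed with slide as a random block (-0.85, limma adjusted p = 0.328, and -0.76, limma adjusted p = 0.608). These calls were also lost without single arrays, with the smallest differences, -0.69 (limma adjusted p = 0.163) and -0.64 (limma adjusted p = 0.173), without Ctrl replicate 3 of the 5-day and Ctrl replicate 1 of the 10-day 24 hr livers. In AggE livers Pklr differed by -0.16 and -0.07 and did not pass. G6pc was lower at 1.5 wks by 1.20 in AggE livers (SE 0.35, limma adjusted p = 0.0128), where every 1.5 wk liver lay under every 24 hr liver, but with slide as a random block it did not pass (-1.01, limma adjusted p = 0.0957) and from processed signals the difference was 0.60. On slide 6 the 1 AggE liver at 24 hrs had 4.91 and the 3 at 1.5 wks 3.93 to 4.39. In Ctrl livers its difference of -1.09 did not pass (SE 0.39, limma adjusted p = 0.0698), and 1 array left out moved it between -1.39, which passed (without Ctrl replicate 2 at 1.5 wks, limma adjusted p = 0.0191), and -0.80 (limma adjusted p = 0.313). From processed signals it turned to 1.10. Irs1 was higher in Ctrl livers at 4 wks by 0.39 (SE 0.11, limma adjusted p = 0.0174), but only 1 of the 4 Ctrl livers at 24 hrs was well above background, and without Ctrl replicate 1 or 2 at 24 hrs the limma adjusted p was 0.0609 or 0.0513. This call was also lost with slide as a random block (0.34, limma adjusted p = 0.527). Foxo1, Ppargc1a and Insr passed in none of these 4 contrasts.

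Some hepatocyte markers and some genes of the wider pathway also differed between the times. At 1.5 wks transthyretin (Ttr) was lower by 2.04 in Ctrl and 2.53 in AggE livers, apolipoprotein A-I (Apoa1) was higher by 1.61 and 1.04, and Alb, Apob and Ass1 passed in neither. The summed Cy-5 signal of the 5 hepatocyte markers, on the log2 scale, ran from 16.1 to 16.6 in Ctrl livers at 1.5 wks and from 16.7 to 17.0 at 24 hrs. In the same Ctrl order, other lists also lay lower at 1.5 wks without overlap. These were endothelial (8.28 to 8.69 against 9.18 to 9.57), Kupffer cell (9.84 to 11.58 against 11.64 to 12.2), adipose (8.73 to 8.82 against 9.06 to 9.58) and erythroid markers (10.3 to 12.6 against 12.9 to 13.7). Stellate cell and fibroblast markers lay higher (11.8 to 12.4 against 10.8 to 11.4), and leukocyte, pancreas, muscle and biliary markers overlapped. In AggE livers the hepatocyte, Kupffer cell, adipose, erythroid and stellate cell lists lay the same way without overlap, the leukocyte list lay lower and the endothelial list overlapped. Of 92 other genes of glucose metabolism and insulin signalling, 13 were higher and 19 lower in Ctrl livers (13.8% of all genes passed) and 17 higher and 21 lower in AggE livers (23.7% of all genes).

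At 4 wks against 24 hrs of the 10-day regimen, Ass1, the urea cycle enzyme argininosuccinate synthase, was lower by 2.09 in Ctrl livers (SE 0.40, limma adjusted p = 0.000941). Alb, Ttr, Apoa1 and Apob passed in neither exposure, nor did Ass1 in AggE livers (-0.72, limma adjusted p = 0.207). The summed hepatocyte markers overlapped, with 16.6 to 17.2 at 4 wks and 16.9 to 17.3 at 24 hrs in Ctrl livers and 16.9 to 17.2 and 16.8 to 17.2 in AggE livers. Stellate cell and fibroblast markers lay higher at 4 wks without overlap, at 11.7 to 12.6 against 9.16 to 11.6 in Ctrl and 11.498 to 12.51 against 10.96 to 11.30 in AggE livers. Erythroid markers lay lower without overlap in Ctrl livers (10.4 to 12.58 against 12.59 to 13.0). In AggE livers leukocyte (10.697 to 11.07 against 11.08 to 11.3) and biliary markers (8.99 to 9.39 against 9.43 to 9.63) did so, and the other lists overlapped. Of the 92 pathway genes, 4 were higher and 8 lower in Ctrl livers (10.3% of all genes passed) and 2 higher and 6 lower in AggE livers (14.5% of all genes). The part of these markers in the Slc2a2, Pklr, G6pc and Irs1 values at either time was not tested.

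When the 8 groups were put in order of their mean, 1 of 49 steps between neighbouring groups over the 7 members passed. It was the step of Slc2a2 from AggE at 1.5 wks (1.56 ± 0.84, SD, n = 5) to Ctrl at 4 wks (3.44 ± 0.39, SD, n = 6; limma adjusted p = 0.00014). It did not pass with scan day as a block, or by the second Slc2a2 probe. Slc2a2 then ran over AggE at 4 wks (3.50 ± 0.60) and the 24 hr groups of the 5-day regimen (3.97 ± 0.46 AggE, 4.07 ± 0.75 Ctrl) to those of the 10-day regimen (4.69 ± 0.28 AggE, 5.02 ± 0.35 Ctrl). These neighbours did not differ beyond their spread. G6pc was lowest in AggE at 4 wks (4.12 ± 0.87, n = 6) and highest in AggE and Ctrl at 24 hrs post-5-day stressor (5.52 ± 0.43, n = 5, and 5.51 ± 0.18, n = 4).

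Pklr was lowest in Ctrl at 4 wks (0.42 ± 0.25, n = 6) and highest in Ctrl at 24 hrs post-5-day stressor (1.38 ± 0.40, n = 4). Irs1 was highest in Ctrl at 4 wks (0.43 ± 0.32, n = 6), above AggE at 4 wks (0.15 ± 0.15, n = 6). Foxo1 ran from 0.33 ± 0.30 in Ctrl at 4 wks (n = 6) to 0.77 ± 0.33 in AggE at 24 hrs of the 10-day regimen (n = 5). Ppargc1a ran from 0.73 ± 0.20 in Ctrl at 1.5 wks (n = 4) to 1.35 ± 0.35 in Ctrl at 4 wks (n = 6). No step between neighbours of these genes passed.

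The other genes of the pathway were set beside the members. Of 92, none passed at 24 hrs post-5-day stressor (3.1% of all genes), where 6 were higher and 8 lower without adjustment (16.8% of all genes), and the median difference was -0.05, against -0.00 over all genes. None passed at 24 hrs post-10-day stressor (0 higher and 1 lower unadjusted, against 2.87% of all genes) or at 1.5 wks (4 higher and 1 lower unadjusted, against 2.49%). At 4 wks 5 passed, 2 higher and 3 lower, against 4.18% of all genes. With slide as a random block, at an estimated correlation of 0.320 within a slide, 0 of the 92 passed, and the 5 had a limma adjusted p from 0.108 to 0.352. Unadjusted 6 were higher and 17 lower (22.8% of all genes). The 4 wk median of the 92 genes was -0.07, against 0.01 over all genes.

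By group at 4 wks, 0 of 15 genes of gluconeogenesis and substrate entry passed (median -0.09), 1 of 18 of glycolysis and pyruvate oxidation (median -0.15) and 0 of 10 of glycogen metabolism (median -0.13). Of insulin signalling 1 of 20 passed (median -0.03), of insulin responsive transcripts 0 of 6 (median 0.07), of hormone receptors and transcription factors 2 of 18 (median -0.09) and of other glucose transporters 1 of 5 (median -0.06).

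Of the 5, Pdha1, a subunit of pyruvate dehydrogenase, was lower in AggE livers by 0.40 (limma adjusted p = 0.0261). Its lowest, median and highest values were -0.18, 0.39 and 0.53 in Ctrl and -0.26, -0.18 and 0.29 in AggE livers, which overlapped. Slc2a1, the glucose transporter GLUT1 of most cells outside the hepatocyte, was lower by 0.60 (limma adjusted p = 0.0386), from -2.91 to -2.45 in Ctrl and from -3.67 to -2.95 in AggE livers, without overlap. At 4 wks 301 of all 17016 genes had no overlap. Creb1, the factor that cyclic AMP activates, was lower by 0.37 (limma adjusted p = 0.0407), with 5 of 6 AggE livers at or below -0.15 and 1 at 0.57.

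The 2 that were higher were dim. Nr0b2, the bile acid induced repressor SHP, was higher by 0.50 (limma adjusted p = 0.0364) and was well above background in 3 of 6 Ctrl and 5 of 6 AggE livers. Gsk3a, a kinase that insulin inhibits, was higher by 0.31 (limma adjusted p = 0.0481), well above background in 2 of 6 Ctrl and 5 of 6 AggE livers. With slide as a fixed block none of these 5 passed: the differences were -0.17 for Pdha1, -0.80 for Slc2a1 (limma adjusted p = 0.0632), -0.03 for Creb1, -0.03 for Nr0b2 and 0.00 for Gsk3a. Each call was also lost when single arrays were left out, and Gsk3a's when any of 10 of the 12 arrays was. Without AggE replicate 5 the Nr0b2 difference was 0.32.

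Foxa2, a liver factor active in fasting, met the limits of 2-fold and an unadjusted p up to 0.05 at 2 times without passing after adjustment. At 1.5 wks it read 0.74, 0.90, 2.53 and 3.42 in Ctrl and 1.42, 2.35, 2.63, 4.20 and 4.27 in AggE livers, listed from low to high. At 4 wks its lowest, median and highest values were 2.68, 4.09 and 4.76 in Ctrl and 2.00, 2.50 and 3.55 in AggE livers. The groups overlapped both times, with a difference of 1.08 at 1.5 wks (unadjusted p = 0.0495, limma adjusted p = 1.00) and of -1.20 at 4 wks (unadjusted p = 0.0123, limma adjusted p = 0.122). Leaving out 1 array moved the 1.5 wk difference between 0.69 (without Ctrl replicate 1) and 1.59 (without Ctrl replicate 2) and left it under 2-fold without Ctrl replicate 1 or 3 or AggE replicate 2 or 3. The 4 wk difference passed after adjustment with array weights and, at -2.14 (limma adjusted p = 0.0337), without normalization between arrays or with Aquantile.

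**Figure D4:**
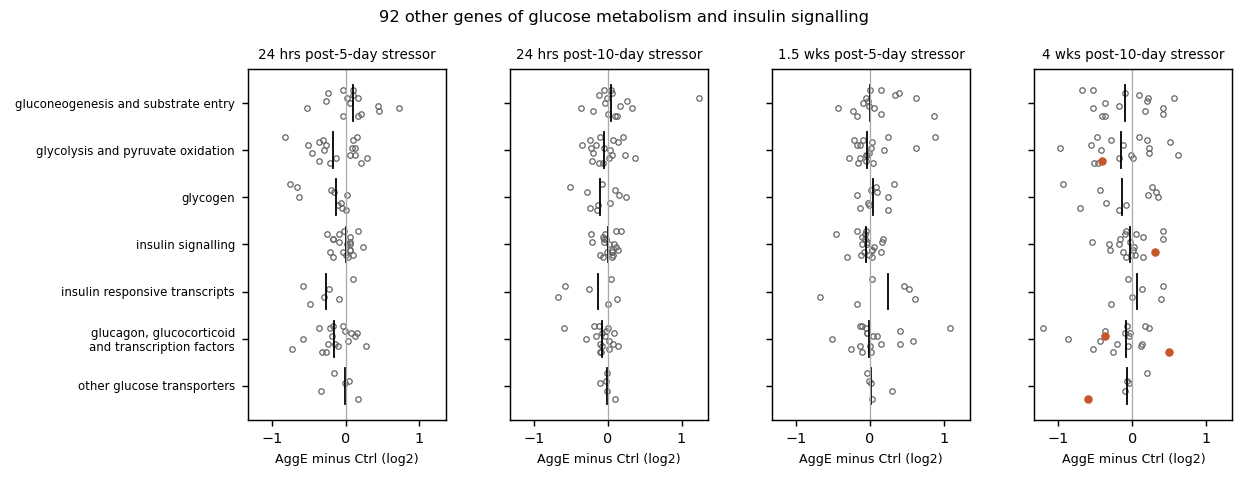
AggE minus Ctrl on the log2 scale (x axis) of 92 other genes of glucose metabolism and insulin signalling in 7 groups (y axis) at the 4 times, 1 circle per gene, with the group median as a black bar. The 5 filled circles at 4 wks are the genes with an adjusted p of 0.05 or less, and medians lie between -0.26 and 0.24 in all panels.

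Markers of other cells were read at the same times. Among 45 marker genes with a probe, 1 passed at 24 hrs post-5-day stressor (3.1% of all genes), Cela2a of the pancreas, which was well above background in no array of either group. At 4 wks 3 passed (4.18% of all genes): Ass1 of hepatocytes, higher by 1.24 in AggE livers, Lep of adipose tissue, higher by 0.31, and Epcam of the biliary epithelium, lower by 0.67 and well above background in 1 of 12 livers. No leukocyte, Kupffer cell, endothelial, stellate, muscle or erythroid marker passed at any time, and no marker did at 24 hrs post-10-day stressor or 1.5 wks. Their part in the members' values was not tested.

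Genes whose log2 ratio ran most like a member's over the 39 arrays were read among 8722 genes well above background on at least 20 of them. Slc2a2 ran closest to Hgd (r = 0.960), Slc38a4 (r = 0.945) and Abat (r = 0.937), and after removal of group means these were 0.810, 0.718 and 0.677. Hgd degrades homogentisate, Slc38a4 carries amino acids and Abat breaks down GABA. G6pc ran closest to Serpinf2 (r = 0.826), Gulo (r = 0.799) and Tm4sf4 (r = 0.756), and Pklr to Rab4a (r = 0.827), Cygb (r = 0.818) and Stx17 (r = 0.811).

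Irs1 ran closest to Phf20l1 (r = 0.804), Lair1 (r = 0.803) and Psd3 (r = 0.788), which were 0.621, 0.586 and 0.668 without the 2 arrays farthest from the median of Irs1. For Foxo1 the nearest were Fes (r = 0.774), Pnpla2 (r = 0.772) and Fbxo31 (r = 0.737), and for Ppargc1a Hhex (r = 0.707), Irf8 (r = 0.680) and Camk2n1 (r = 0.670). Among the members themselves the strongest were Irs1 with Foxo1 (r = -0.572), Pklr with Slc2a2 (r = 0.513) and G6pc with Slc2a2 (r = 0.446). All these values share arrays, slides, reference and group differences, and describe likeness over the 39 arrays only.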

How the data were processed

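Per the labels, each of the 39 samples was 1 liver hybridised in Cy-5 against a universal mouse reference in Cy-3 on an Agilent 2-colour array, with no dye swap. The authors' deposited scanner files hold spot intensities in both channels, made with Feature Extraction 11.5.1.1 per the file headers, with processed intensity columns and flags. The deposited series table holds log10 ratios of Cy-5 over Cy-3, used as an alternative. Its columns of no known sample numbered 0. Groups followed the descriptions in the labels. The titles of all 5 AggE samples and of Ctrl replicate 4 at 1.5 wks carried a 10, as those of the 10-day samples do, and the headings of the 5 AggE samples at 24 hrs post-5-day stressor named 1 day. The replicate line of the description was followed in each.

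Median intensities were background-corrected with normexp (offset 50), loess-normalized within arrays and quantile-normalized between arrays in limma 3.58.1 (R 4.3.3, statmod 1.5.0). The study's methods name background correction, LOWESS and quantile normalization, without the kind of correction; normexp, its offset and the median intensities were chosen here. Control and outlier spots had weight 0, and outlier spots were then left out. Spots of a probe were averaged. The 25903 RefSeq probes were fitted together over all 8 groups with limma's moderated test and Benjamini-Hochberg adjustment, and 24375 had a symbol in the RefSeq table of assembly GRCm38.p6, whose coordinates were not used. A gene was counted by its probe with the highest mean Cy-5 signal. Called means an adjusted p of 0.05 or less. No Cy-5 spot was saturated, and the number of arrays limits the precision. The fit was tested on simulated data with independent arrays, which left out the correlation within slides.

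The genes named beside the members were those of the pathway lists with an adjusted p of 0.05 or less (at most 4 per list and time) or 2-fold or more at an unadjusted p of 0.05 or less, and the 3 genes most correlated with each member well above background on at least 20 arrays. Hepatocyte markers were named for the time contrasts after their values were seen. The members and lists were chosen with earlier results of these data known. Samples that share a replicate number were not paired: correlations of their deviations ran from -0.448 to 0.502. Alternatives were other background corrections, normalizations, probe filters, sample sets, array weights and slide or scan day terms. Aquantile leaves the log ratios as they are, so it gave the values of no normalization between arrays and is not a separate alternative. The time contrasts, their alternatives, the first scan day alone, the other probe of Slc2a2 and Foxo1, and the alternatives for the order of groups and the 2-fold limits were chosen after seeing the data.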

Additional observations from a re-analysis of the deposited data

Results flagged for a closer look

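In groups of 4 to 6 mice, each member's highest and lowest liver was compared with the nearest of the others, and 4 of 56 combinations of member and group had a liver far from the rest. Chance gives about 1 in 20 groups. Pklr, the liver pyruvate kinase, was 1.71 in AggE replicate 5 at 24 hrs post-10-day stressor, while the other 4 livers had 0.57 to 0.89. Foxo1 was 0.90 in AggE replicate 1 at 24 hrs post-5-day stressor, against 0.43 to 0.56 in the others. Foxo1 was -0.27 in AggE replicate 1 at 4 wks, against 0.39 to 0.67, and that array was the only AggE array of its group on slide 9. Ppargc1a was 0.63 in AggE replicate 3 at 4 wks, against 0.85 to 0.92.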

How the results depend on the processing

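No member passed at 24 hrs post-10-day stressor or at 1.5 wks, or in the 3 tests of differences, under any alternative run. At 24 hrs post-5-day stressor 1 member, Pklr, passed with no background correction (-1.77), an offset of 16 (-1.36), Cy-5 alone (-0.55), the series log ratios (-2.59) and array weights (-0.75), and 0 to 1 with 1 array left out; with slide as a random block it was -0.47 (limma adjusted p = 0.938). At 4 wks 1 passed with no background correction and with array weights (Irs1), and 2 without normalization between arrays or with Aquantile (Irs1 and Ppargc1a), and 0 to 1 with 1 array left out. At 2-fold with an unadjusted p up to 0.05, 1 call over members and times passed with no background correction and an offset of 16, 2 without normalization between arrays, with Aquantile and from the series log ratios, and 3 from processed signals.

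Of the 92 pathway genes, at 24 hrs post-5-day stressor (0) the count was 4 with no background correction, 3 with an offset of 16, Cy-5 alone or array weights, 1 from the series log ratios or with only the groups compared, and 0 to 1 with 1 array left out. At 4 wks (5) it was 0 with no background correction, processed signals, Cy-5 alone, the series log ratios, only the groups compared or slide as a random block, 1 with an offset of 16, 8 with only probes well above background, 13 with array weights, 15 without normalization between arrays or with Aquantile, and 0 to 10 with 1 array left out. With slide as a fixed block Nr0b2 at 4 wks was -0.0331. In the fit with the replicate number as a block (replicate block) 0 members passed at each of the 4 times, and 2 pathway genes passed at 24 hrs post-5-day stressor and 3 at 4 wks; the samples share only a number.

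Over time, the members called at 1.5 wks in Ctrl livers (2) were 4 from processed signals, 1 with Cy-5 alone, the series log ratios or slide as a random block, and 1 to 3 with 1 array left out. In AggE livers (2) they were 1 with no background correction, an offset of 16, the series log ratios, slide as a random block or the other probes, 0 without normalization between arrays or with Aquantile, 4 with Cy-5 alone, and 2 with any array left out. At 4 wks in Ctrl livers (3) they were 0 with slide as a random block, 1 with scan day as a block, 2 from processed signals, without normalization between arrays, with Aquantile, Cy-5 alone, the series log ratios or only the groups compared, and 1 to 3 with 1 array left out. In AggE livers (1) they were 0 from processed signals, without normalization between arrays, with Aquantile, Cy-5 alone, the series log ratios, slide as a random block or the other probes, 2 with array weights, and 1 to 2 with 1 array left out. G6pc turned higher at 1.5 wks from processed signals, by 1.10 in Ctrl and 0.60 in AggE livers, and by 0.37 in AggE livers from the series log ratios; Ppargc1a in Ctrl livers turned to 0.94 from processed signals. The fall of Slc2a2 in Ctrl livers at 1.5 wks passed under every alternative run. Slide as a fixed block could not be among them, since all 4 Ctrl livers at 24 hrs post-5-day stressor were on slide 4, which held no other group. Of the 49 steps in the order of groups (1), 5 passed with no background correction or the series log ratios, 6 from processed signals, 2 with an offset of 16, without normalization between arrays or with Aquantile, 4 with Cy-5 alone, 3 with array weights and 0 with scan day as a block or the other probes. The causes were not tested.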
